A study of Mus with 2 samples.

Results

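The genes described here are 10 genes that are widely used as markers of injured or repairing kidney tubule: Spp1, Lcn2, Cp, Clu, Sox4, Krt8, Krt18, Cd44, Havcr1 and Vcam1. They were taken by symbol from the authors' deposited table, in every cell cluster that lists them. Of the 10 genes, 8 were listed in at least 1 cluster, among 8191 distinct genes in all, and they made up 20 of the 20111 entries of the table. Havcr1, which encodes the injury molecule KIM-1, and Vcam1, which encodes a leukocyte adhesion molecule, were not listed in any cluster.

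Whole-kidney cell suspensions from senescent C57BL/6 mice and from young C57BL/6 mice were each made into 1 droplet library and sequenced, which measures the transcripts of single cells. No treatment, transgene or mutation is given for either group, and the sources used here state neither the ages nor how many mice were pooled. The series states 4408 cells for the senescent mice and 10895 for the young mice. The table gives, for each of 7 clusters that the authors named PT, LOH, endo (tubule and endothelium, by their labels), Marco, T, B and Neutro (immune cells, by their labels), the mean of each gene per cell on a scale of the authors whose factor is not stated. It holds an entry only where the authors' p over cells lay under 0.05 and the log2 fold change reached 0.36 in either direction, so a missing entry does not show that a gene was unchanged. With 1 library per group there is no spread between mice, every value below is the mean of 1 library, and the adjusted p-values are the authors' own, from spread among cells. The sequencing depth and the cells per cluster are not given, so no counting interval could be set. Markers of the labelled cell type were listed in 6 of the 7 clusters, all but endo. Umod had a mean of 148 in the senescent and 47.6 in the young library in LOH. Proximal tubule markers summed to 281 in the senescent and 973 in the young library in PT. The marker Kap alone had 21.4 in the senescent and 719 in the young library there. Of the 14 proximal tubule markers listed in PT, 6 were higher and 8 were lower in the senescent library. Macrophage markers summed to 222 in the senescent and 37.1 in the young library in Marco. T cell markers summed to 73.6 in the senescent and 19.9 in the young library in T, and B cell markers to 196 in the senescent and 70.8 in the young library in B. In the young library, proximal tubule markers summed to more than these in each of the 3 clusters, as given below. The table names its contrast by a code that mentions neither senescent nor young mice, so every direction rests on the sample descriptions in the labels.

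When the tubular epithelium is damaged, surviving cells lose part of their transport function, switch on genes of adhesion, secretion and the cytoskeleton, and may divide to replace lost neighbours. Several products of this programme leave the cell. Osteopontin, encoded by Spp1, is a secreted matrix protein that binds integrins and CD44 and is made by the distal nephron in the healthy kidney. NGAL, encoded by Lcn2, binds iron-carrying siderophores and appears in urine after injury. Ceruloplasmin, encoded by Cp, is a copper-containing ferroxidase, and clusterin, encoded by Clu, is a secreted chaperone. Keratins 8 and 18 pair as the intermediate filament of simple epithelia, SOX4 is a transcription factor of epithelial development, and CD44 is a hyaluronan receptor carried by leukocytes and by injured epithelium. In the annotation that the deposited table carries, 5 of the 8 listed genes (Spp1, Lcn2, Cp, Clu and Krt18) are assigned to the extracellular space, a term held by 4.82% of the 8191 listed genes. Spp1 and Cd44 share the pathway of ECM-receptor interaction, and Lcn2 and Cp share iron ion homeostasis.

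None of the 8 listed genes had entries in both directions. Sox4 and Krt18 had 1 entry each and so could not, and Lcn2, Cp and Cd44 had 2 each. Entries short of the authors' limits were not listed. Spp1, Lcn2, Cp, Sox4 and Cd44 had higher means in the senescent library in every cluster that lists them, 12 entries in all, and Clu, Krt8 and Krt18 had lower means in every cluster that lists them, 8 entries in all. All 20 entries differed by more than 2-fold, the fold used here to call a difference, and the smallest absolute log2 fold change was 1.54 in the authors' deposited table. An adjusted p of at most 0.05 per the authors' deposited table was reached by 8 of the 12 higher and 2 of the 8 lower entries. In the PT, LOH and endo clusters together there were 6 higher and 4 lower entries, and in the Marco, T and B clusters together there were also 6 higher and 4 lower entries.

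**Figure D1:**
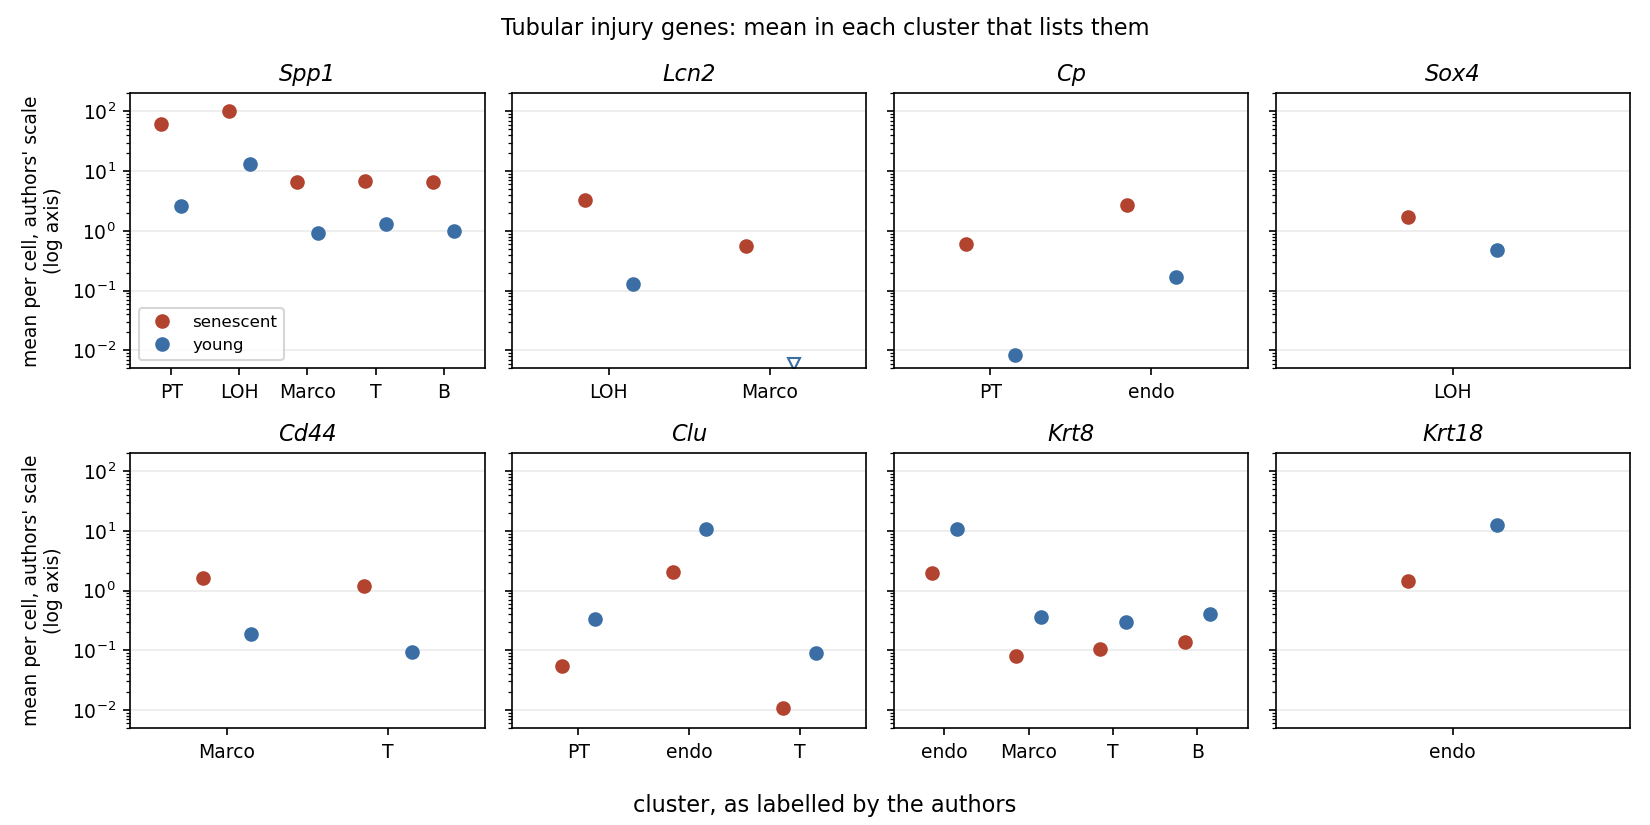
Mean per cell on the authors' scale (log axis) for the 8 listed genes in each cluster that lists them, with the senescent library in red left of the young library in blue, and an open triangle at the foot of the axis for a mean listed at 0. Spp1, Lcn2, Cp, Sox4 and Cd44 lie higher in the senescent library in each panel, and Clu, Krt8 and Krt18 lie lower; Spp1 in PT stood at 62.4 in the senescent library and 2.62 in the young library.

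These counts have to be read against the shares of all listed genes that passed the same 2-fold difference in the same cluster. In PT, 57.2% of all listed genes were called higher and 5.60% were called lower in the senescent library, and the members had 2 higher entries (Spp1 and Cp) and 1 lower entry (Clu). In LOH, 27.5% of listed genes were called higher, and all 3 member entries (Spp1, Lcn2 and Sox4) were higher. In endo, 41.4% were called higher and 33.9% lower, against 1 higher (Cp) and 3 lower member entries (Clu, Krt8 and Krt18). In Marco, 47.6% were called higher and 31.5% lower, against 3 higher entries (Spp1, Lcn2 and Cd44) and 1 lower (Krt8). In T, 25.8% were called higher and 38.9% lower, against 2 of each (Spp1 and Cd44, and Clu and Krt8), and in B 16.3% were called higher and 54.1% lower, against 1 of each (Spp1 and Krt8). With so few entries per cluster, the members' counts cannot be set apart from these shares, and the sizes of the differences say more. No member was listed in Neutro.

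The adjusted p-value separated the clusters more than the members. Per the authors' deposited table it was at most 0.05 for 99.96% of listed genes in PT (5035 of 5037), 14.7% in LOH and 0.973% in endo. Among the immune clusters it was at most 0.05 for 49.4% in Marco, 30.7% in T and 19.7% in B. All 3 member entries of PT, all 3 of LOH and all 4 of Marco passed it, and none of the 4 in endo, the 4 in T or the 2 in B did. The clusters' cell numbers, on which such a p depends, were not used here.

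**Figure D2:**
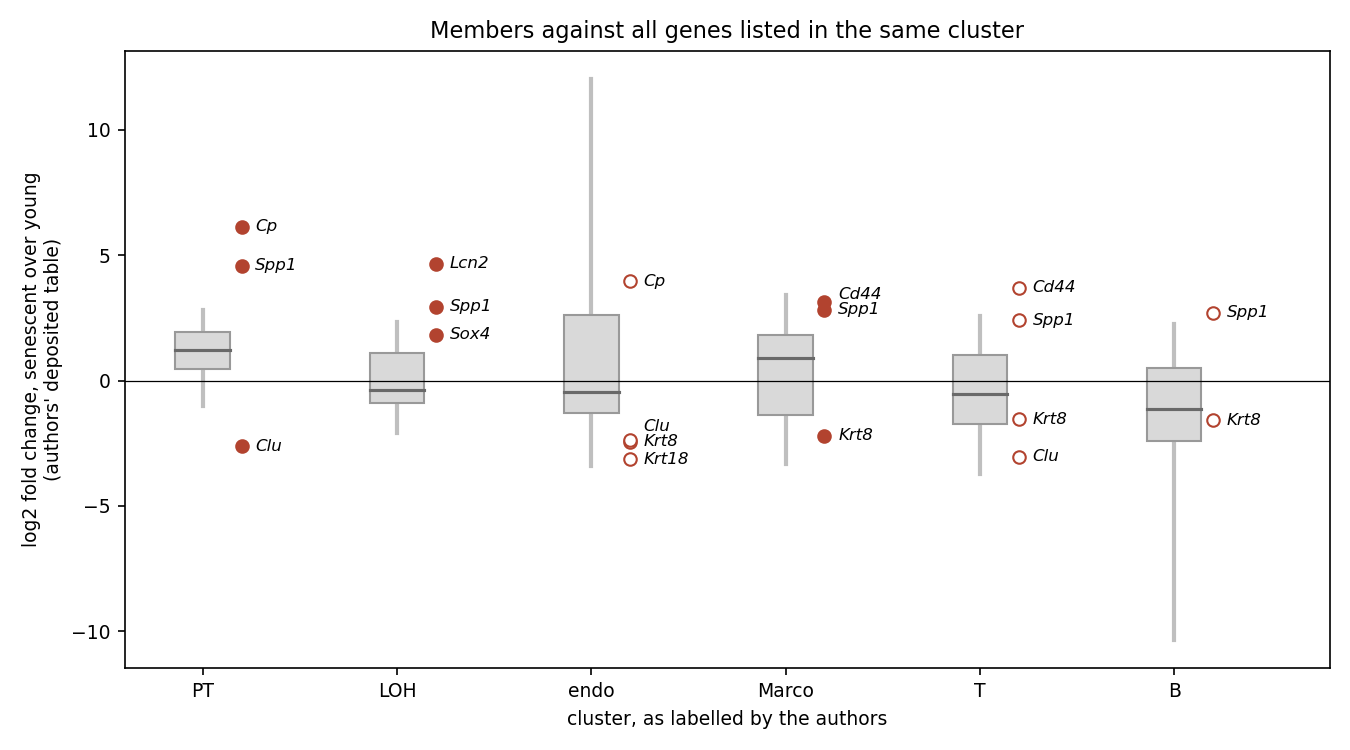
Log2 fold change of senescent over young in the authors' deposited table for each member entry (points; filled where the adjusted p was at most 0.05, open otherwise), beside the middle 50% (box), the median (dark line) and the 5th to 95th percentile (grey line) of all genes listed in that cluster; Lcn2 in Marco, at 0 in the young library, is left out. Cp, Spp1 and Clu in PT and Lcn2 and Spp1 in LOH lie beyond the grey lines, as do Cd44 in T and Spp1 in B, whereas Krt8 in T and B lies inside the boxes.

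Spp1 was the member listed most widely, in 5 of the 7 clusters, and its mean was higher in the senescent library in each. In PT its mean was 62.4 in the senescent library and 2.62 in the young library, a 23.8-fold difference. Of the 5037 genes listed in PT, 0.635% had a larger log2 fold change. In LOH, the loop of Henle cluster, Spp1 had a mean of 101 in the senescent library and 13.1 in the young library, a 7.71-fold difference. The order of the tubular clusters was the same in both libraries, with LOH above PT, but the distance was smaller in the senescent library, where the LOH mean was 162% of the PT mean, against 499.7% in the young library. Spp1 lies on chromosome 5 from 104435111 to 104441053 in the mouse build mm10 and is annotated as protein coding.

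The immune clusters held Spp1 at a lower and nearly even level. In Marco, the macrophage cluster, its mean was 6.47 in the senescent library and 0.909 in the young library. In T it was 6.82 in the senescent library and 1.29 in the young library, and in B it was 6.52 in the senescent library and 1.00 in the young library. The folds were thus 7.12 in Marco, 5.30 in T and 6.51 in B, and the adjusted p per the authors' deposited table was 3.90e-34 in Marco, 0.284 in T and 0.0840 in B. Within the senescent library the 3 immune means lay between 10.4% and 10.9% of the PT mean and between 6.42% and 6.77% of the LOH mean. Within the young library they lay between 34.8% and 49.2% of the PT mean and between 6.95% and 9.85% of the LOH mean.

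Transcripts of the tubule itself were present in the same immune clusters, and their levels moved between the libraries. Of the 16 proximal tubule markers examined, 15 were listed in Marco, 16 in T and 15 in B, and every one of these was lower in the senescent library. Their summed means were 31.8 in the senescent and 859 in the young library in Marco. In T they were 28.5 in the senescent and 694 in the young library, and in B 35.7 in the senescent and 702 in the young library. Kap alone made up most of the young sums, at 642 in Marco, 505 in T and 499 in B. Its senescent means were 2.24 in Marco, 2.82 in T and 1.24 in B. The summed proximal tubule markers were thus far lower in the immune clusters of the senescent library. Spp1 was higher there, as it was in PT and LOH. In the senescent library the markers listed in both clusters stood at a median of 8.67% of their PT level in Marco (13 markers), 7.69% in T (14 markers) and 7.92% in B (13 markers). Spp1, at 10.4%, 10.9% and 10.5% of its PT level, lay inside the range of these markers in each of the 3 clusters, for example 6.44% to 20.9% in Marco. In the young library the marker medians were 89.2% in Marco, 79.9% in T and 66.2% in B, and Spp1 lay below the median in all 3 and below the whole range in T (49.5% to 182%) and in B (45.8% to 166%). In LOH, by contrast, Spp1 stood at 162% of its PT level in the senescent library while the 12 markers stood between 6.54% and 18.4%. The part of tubule RNA in the Spp1 values of the immune clusters was not tested.

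**Figure D3:**
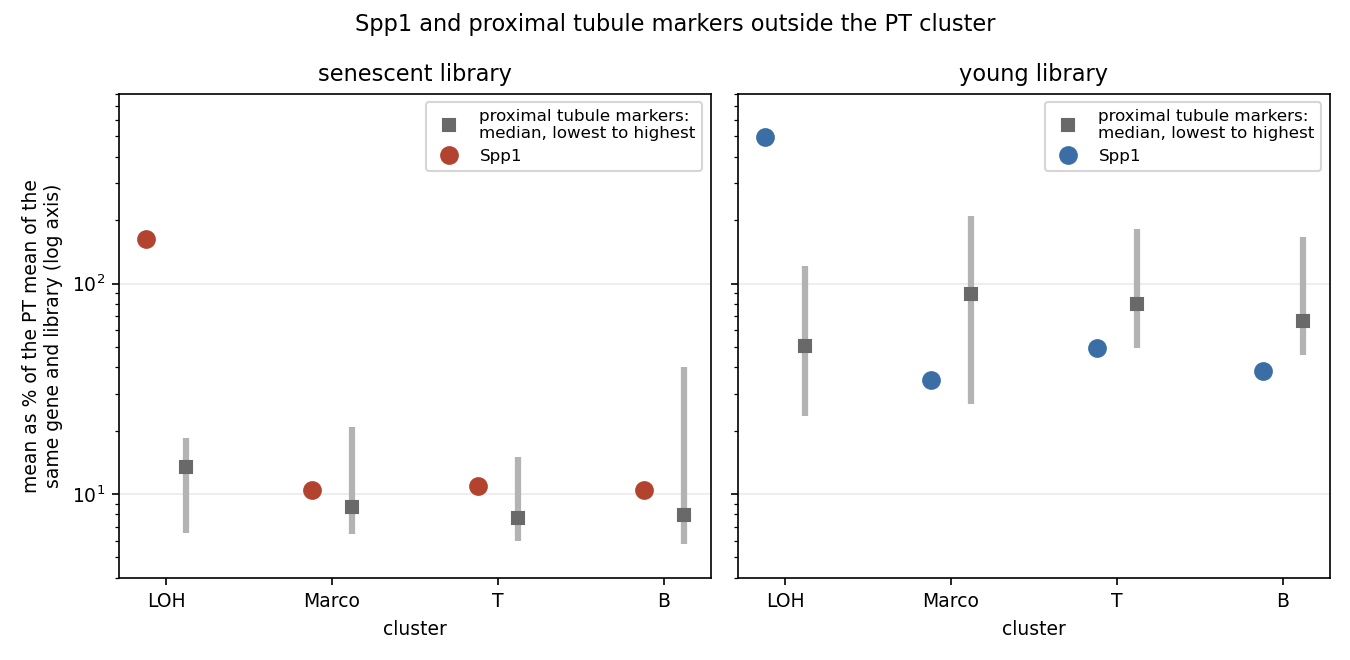
Mean of Spp1 (circles) and of the proximal tubule markers listed in both clusters (squares, median; grey lines, lowest to highest) in LOH, Marco, T and B, as a percentage of the PT mean of the same gene in the same library (log axis), for the senescent library on the left and the young library on the right. In the senescent library Spp1 lies at 10.4% to 10.9% in Marco, T and B, inside the range of the markers, and in LOH it lies far above them at 162%.

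Ratios between transcripts of 1 library give the same comparison in another form. The ratio of Spp1 to Kap, an abundant androgen-regulated proximal tubule transcript, was 2.91 in PT, 2.88 in Marco, 2.42 in T and 5.24 in B in the senescent library, and 65.3 in LOH. In the young library the same ratio was 0.00364 in PT, 0.00142 in Marco, 0.00255 in T, 0.00201 in B and 0.0646 in LOH. LOH thus stood apart from the other 4 clusters in both libraries. The ratio of Spp1 to Umod, the main secreted product of the thick ascending limb, was 0.680 in LOH, 117 in PT, 7.50 in Marco, 15.2 in T and 19.4 in B in the senescent library. In the young library that ratio was 0.274 in LOH, 0.818 in PT, 0.524 in Marco, 1.91 in T and 1.36 in B. In PT, Umod itself had a mean of 0.535 in the senescent library and 3.20 in the young library, so Umod and Spp1 differed in opposite directions there. In LOH both were higher, with Umod at 148 in the senescent library and 47.6 in the young library. The 14 listed proximal tubule markers were all lower there, with summed means of 24.1 in the senescent and 289.8 in the young library. Kap alone had 1.54 in the senescent and 202 in the young library in LOH.

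Among genes listed in the same 5 clusters as Spp1, those with the most similar log2 ratios (pseudocount of 1, mean absolute difference over the 5 clusters, 656 genes compared) were Apoe (0.80), Txnip (0.92), B2m (0.92), Zfp36l1 (0.96) and Jun (0.97). None followed Spp1 closely, since each mean difference was 0.80 or more on the log2 scale. Txnip, which encodes a thioredoxin-binding protein, had means of 9.28 in the senescent and 0.244 in the young library in PT, and Zfp36l1, which encodes an mRNA-decay factor, had means of 7.64 in the senescent and 0.456 in the young library there.

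Osteopontin acts through integrins and CD44, and of 10 such receptor genes examined, Cd44 included, 4 were listed in PT, each higher and each at an adjusted p of at most 0.05 per the authors' deposited table. Itgb6, a beta chain that epithelia pair with the alpha-v chain, had a mean of 1.28 in the senescent library and 0.477 in the young library in PT, and Itgav, the alpha-v chain, had 0.674 in the senescent and 0.271 in the young library. Itgb1 had 0.927 in the senescent and 0.382 in the young library. The median log2 fold change of the 4 receptor genes, 1.30, lay near the 1.22 of all genes listed in PT, of which 78.4% were higher. In Marco, 5 of 6 listed receptor genes were higher and 1 was lower, with a median of 2.30 against 0.91 over all listed genes. Of all genes listed in Marco, 58.3% were higher. With a pseudocount of 1 the receptor medians were 0.44 in PT and 0.82 in Marco. Itgb5 had a mean of 2.07 in the senescent and 0.225 in the young library in Marco, whereas Itgb6 was lower there, at 0.141 in the senescent and 0.926 in the young library. In T, 3 of 5 listed receptor genes were higher, and in B 1 of 2 was, where 44.8% and 28.2% of all listed genes were. Itgb6 was lower in T and B as well, at 0.105 in the senescent and 0.631 in the young library in T, and at 0.0341 in the senescent and 0.764 in the young library in B.

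Cd44, the receptor among the members, was listed only in Marco and T. Its mean was 1.64 in the senescent library and 0.184 in the young library in Marco, an 8.91-fold difference with an adjusted p of 7.20e-12 per the authors' deposited table. In T its mean was 1.19 in the senescent library and 0.0917 in the young library, a 13.0-fold difference with an adjusted p of 1.00 per the authors' deposited table. The markers of the cells themselves were also higher in these clusters, namely all 12 of the macrophage or monocyte markers in Marco, with a median log2 fold change of 2.81, and all 8 listed T or NK cell markers in T, with a median of 1.81. The log2 fold change of Cd44 in the authors' deposited table was 3.15 in Marco and 3.70 in T. No entry for Cd44 in PT, LOH or endo was listed. Cd44 lies on chromosome 2 from 102811141 to 102901669.

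Vcam1 was not listed, but genes of its integrin ligand and of leukocyte adhesion were. All 7 listed in Marco were higher, 5 of them at an adjusted p of at most 0.05 per the authors' deposited table, and all 6 listed in T were higher, 2 of them past it. The median log2 fold change was 1.77 in Marco against 0.91 over all listed genes, of which 58.3% were higher, and 2.04 in T against -0.54, where 44.8% were higher. Itga4, the alpha chain of the VCAM-1 ligand, had a mean of 0.988 in the senescent and 0.290 in the young library in Marco. Itgb2, the shared beta chain of the leukocyte integrins, had a mean of 2.57 in the senescent and 0.292 in the young library in Marco. In PT, Icam1, which encodes another adhesion molecule for leukocytes, had a mean of 0.220 in the senescent library and 0.0231 in the young library. The share of these differences that moves with the leukocyte markers was not tested.

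Lcn2 was listed in LOH and Marco. In LOH its mean was 3.26 in the senescent library and 0.128 in the young library, a 25.4-fold difference, and 0.454% of the 1761 listed genes had a larger log2 fold change. In Marco its mean was 0.563 in the senescent library and it was listed at 0 in the young library, so no fold is given there. Per the authors' deposited table, the adjusted p was 8.55e-12 in LOH and 0.00207 in Marco. Lcn2 is also carried by neutrophil granules, and neutrophil markers were listed in both clusters. Of 9 neutrophil markers, 2 were listed in LOH. S100a8 had a mean of 2.57 in the senescent and 0.0398 in the young library, and S100a9 had 2.85 in the senescent and 0.0177 in the young library. Neither passed the adjusted p there. Macrophage or monocyte markers were listed in LOH as well, 3 of 12, all higher and none past the adjusted p. They summed to 1.67 in the senescent and 0.119 in the young library. In Marco 4 of the 9 neutrophil markers were listed, 3 higher and 1 lower. Their summed means were 6.91 in the senescent and 0.953 in the young library. S100a8 was listed at 0 in the young library there, and the lower marker was G0s2, at 0.329 in the senescent and 0.895 in the young library. Among Neutro cells S100a8 and S100a9 together reached 2632 in the senescent and 1149 in the young library, and Lcn2 was not listed there. The part of neutrophil transcripts in the Lcn2 values was not tested. Lcn2 lies on chromosome 2 from 32384637 to 32387739.

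Cp was listed in PT and endo. Its mean in PT was 0.606 in the senescent library and 0.00849 in the young library, a 71.4-fold difference, and 0.199% of the genes listed in PT had a larger log2 fold change. The young mean was low, so the size of the fold is uncertain: with a pseudocount of 1 the log2 ratio was 0.67. In endo the mean of Cp was 2.68 in the senescent library and 0.172 in the young library, a 15.6-fold difference with an adjusted p of 1.00 per the authors' deposited table. Cp lies on chromosome 3 from 19956933 to 20009750.

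Genes that handle iron with ceruloplasmin and NGAL went in different directions by cluster. In PT, 5 of 7 listed members were higher and 2 were lower, all at an adjusted p of at most 0.05 per the authors' deposited table. Their median log2 fold change was 1.26 against 1.22 over all listed genes, of which 78.4% were higher. Slc40a1, which encodes the iron exporter ferroportin, had a mean of 0.699 in the senescent and 0.0812 in the young library, an 8.61-fold difference. Slc11a2, which encodes the iron importer DMT1, had 0.818 in the senescent and 0.296 in the young library. Cubn, which encodes the endocytic receptor cubilin, had 2.95 in the senescent and 1.18 in the young library. Hmox1, which encodes the haem-degrading enzyme heme oxygenase 1, was lower at 0.143 in the senescent and 0.353 in the young library. In LOH 3 of 4 and in Marco 4 of 6 listed members were lower. Their medians were -0.90 in LOH, against -0.39 over all listed genes, and -1.47 in Marco, against 0.91. Of all listed genes, 47.8% were higher in LOH and 58.3% in Marco. In T all 8 were lower, with a median of -1.98 against -0.54, and 44.8% of all genes listed in T were higher. In B all 4 were lower, with a median of -1.72 against -1.15, and 28.2% of all genes listed in B were higher. Of these lower members 4 passed the adjusted p in T and 3 in B. The light chain gene of ferritin, Ftl1, for example, had a mean of 10.5 in the senescent and 35.9 in the young library in T. Lrp2 and Cubn, lower in Marco, T and B, are also among the proximal tubule markers, which were all lower there where listed. The part of tubule RNA in the iron gene values of the immune clusters was not tested.

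Sox4 was listed in LOH alone, with a mean of 1.71 in the senescent library and 0.485 in the young library. The 3.54-fold difference had an adjusted p of 0.0467 per the authors' deposited table, close to the limit of 0.05. With a pseudocount of 1 the log2 ratio was 0.87, which ends the 2-fold call. Of the genes listed in LOH, 10.4% had a larger log2 fold change. Sox4 lies on chromosome 13 from 28948919 to 28953699.

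Clu, Krt8 and Krt18 were the members with lower means in the senescent library. Clu had a mean of 0.0539 in the senescent library and 0.331 in the young library in PT, where it was 6.14-fold lower with an adjusted p of 3.08e-97 per the authors' deposited table. Only 0.596% of the genes listed in PT had a smaller log2 fold change. Both means were low, and the 2-fold call of Clu in PT ends with a pseudocount of 1, at a log2 ratio of -0.34, and with a minimum mean of 0.5. In T the mean of Clu was 0.0107 in the senescent library and 0.0885 in the young library, with an adjusted p of 1.00 per the authors' deposited table. Both values are low, and with a pseudocount of 0.1 the log2 ratio was -0.77. A list of 8 symbols for clusterin and chaperone-like secreted proteins was also examined. In PT 5 of 6 listed were higher, with a median log2 fold change of 1.53 against 1.22 over all listed genes. In endo 2 of 2 were higher, with 1.30 against -0.47, and in T 3 of 6, with 0.13 against -0.54. Of all listed genes, 78.4% were higher in PT, 48.2% in endo and 44.8% in T. With a pseudocount of 1 the list median in PT was 0.80. Clu lies on chromosome 14 from 65968483 to 65981548.

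Krt18 was listed in endo alone, and the means of Clu and Krt8 were highest in endo among the clusters that list them. All 3 were lower there in the senescent library. Clu had a mean of 2.06 in the senescent library and 10.7 in the young library. Krt8 had a mean of 1.98 in the senescent library and 10.8 in the young library. Krt18 had a mean of 1.42 in the senescent library and 12.5 in the young library. These 3 genes were 5.18-fold, 5.46-fold and 8.81-fold lower, and each had an adjusted p of 1.00 per the authors' deposited table. Krt8 and Krt18 are neighbours on chromosome 15, at 101996711 to 102004342 and 102028216 to 102032026, with 23873 bases between them.

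Papillary and urothelial transcripts were lower together with these 3 genes in endo. Of 9 markers of parietal or papillary epithelium and urothelium examined, 5 were listed in endo, all lower, with summed means of 8.14 in the senescent library and 66.9 in the young library and none at 0. Psca had a mean of 2.86 in the senescent and 27.5 in the young library. Upk3a and Upk1b, which encode uroplakins of the urothelial surface, had 2.45 and 0.467 in the senescent library and 15.5 and 5.04 in the young library. Keratin genes Krt19 and Krt7 had 1.32 and 1.05 in the senescent library and 11.6 and 7.23 in the young library. Each of these 5 had an adjusted p of 1.00 per the authors' deposited table. As none of 10 endothelial markers was listed in the cluster, its label could not be checked against them, and Krt8, Krt18 and Clu in endo are described here only by the authors' label. Proximal tubule markers were listed there as well, 6 of 7 lower, with summed means of 143 in the senescent and 405 in the young library. The lower sum rested on Kap, at 4.31 in the senescent and 294 in the young library. The 5 proximal tubule markers listed in both endo and PT stood at a median of 61.5% of their PT level in the senescent and 66.0% in the young library. The higher marker was Gpx3, at 102 in the senescent and 52.3 in the young library. The part of these epithelial transcripts in the values of the 3 genes was not tested.

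**Figure D4:**
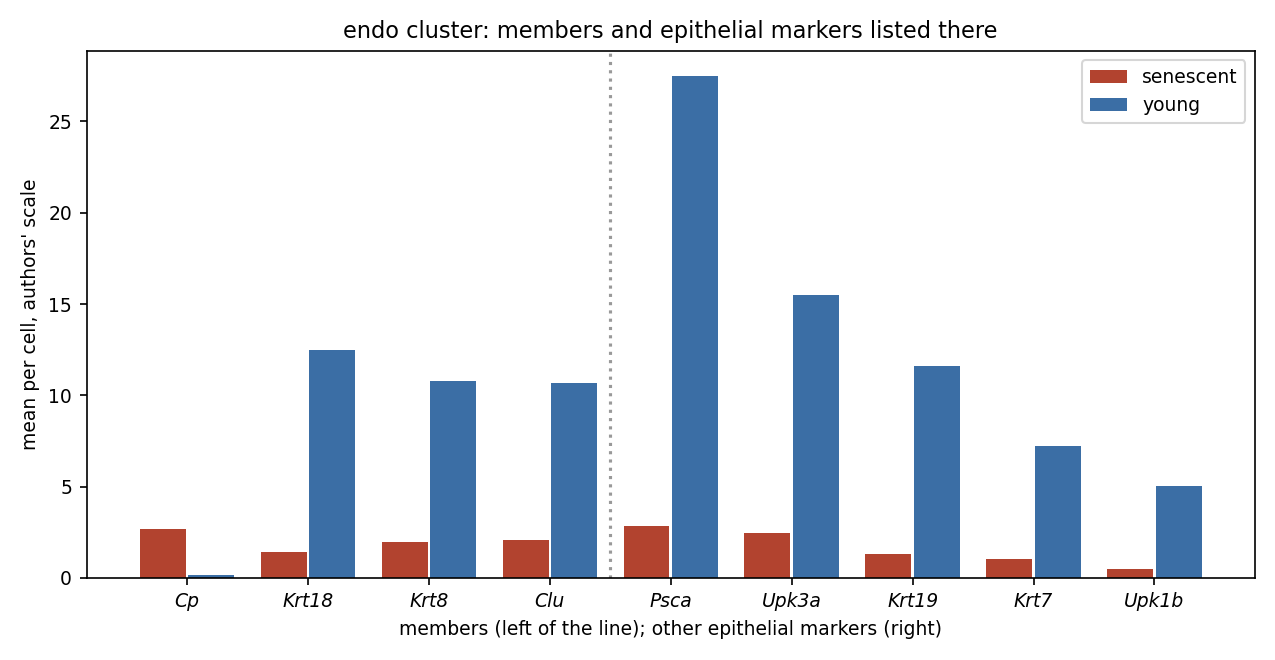
Mean per cell on the authors' scale in the endo cluster for the 4 members listed there (left of the dotted line) and for the 5 listed markers of parietal or papillary epithelium and urothelium (right), senescent library in red and young library in blue. Krt18, Krt8 and Clu were lower in the senescent library together with Psca, Upk3a, Krt19, Krt7 and Upk1b, whereas Cp was higher, at 2.68 in the senescent and 0.172 in the young library.

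Krt8 was also listed in the 3 immune clusters at low means. It had a mean of 0.0786 in the senescent library and 0.360 in the young library in Marco, 4.58-fold lower with an adjusted p of 0.000519 per the authors' deposited table. With a pseudocount of 1 its log2 ratio in Marco was -0.33, and a minimum mean of 0.5 also ends the call in all 3 clusters. In T it had 0.103 in the senescent and 0.300 in the young library, and in B 0.136 in the senescent and 0.407 in the young library. Per the authors' deposited table, the adjusted p was 0.515 in T and 1.00 in B. In B the lower call of Krt8 ends when the log2 fold change is taken relative to the median of all listed genes, -1.15, since it then stands at -0.43. Proximal tubule markers were lower in these clusters too, as given above. The thick ascending limb markers had summed means of 8.05 in the senescent and 79.1 in the young library in Marco. Fxyd2 alone made up most of both sums, at 6.43 in the senescent and 72.3 in the young library. It was also listed in PT, at 56.2 in the senescent and 142 in the young library. Umod in Marco had 0.862 in the senescent and 1.73 in the young library. The part of tubule transcripts in the Krt8 values was not tested. With a pseudocount of 1, 305 genes were compared with Krt8 over its 4 clusters. The log2 ratios most like its own were those of Fmo5 at a mean absolute difference of 0.16, Ndrg2 at 0.18, Gstp1 at 0.34, and Perp and Tmem183a, both at 0.38. At low means this pseudocount draws ratios together, so the small differences do not show that the folds were alike. Without it, the senescent mean over the young mean was 0.0929 in T and 0.0974 in B for Fmo5, against 0.343 and 0.335 for Krt8. Fmo5 encodes a flavin monooxygenase and had a mean of 0.858 in the senescent and 6.28 in the young library in endo.

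Other epithelial filament and junction genes were lower in most entries of the clusters that list Krt8. In endo all 3 listed genes (Krt19, Krt7 and Cdh1) were lower, with a median log2 fold change of -2.78 against -0.47 over all listed genes. In Marco 3 of 4, in B 2 of 3 and in T 1 of 2 were lower, and in each of these 3 clusters the higher gene was Vim. Of all listed genes, 48.2% were higher in endo, 58.3% in Marco, 28.2% in B and 44.8% in T. With so few entries, these counts cannot be set apart from those shares. In PT and LOH, where Krt8 was not listed, the listed genes were higher, as were 78.4% of all genes listed in PT and 47.8% in LOH. In PT these were Cdh1, which encodes E-cadherin, at 0.197 in the senescent and 0.0919 in the young library, and Pkp2, of the desmosome, at 0.241 in the senescent and 0.0534 in the young library. In LOH the epithelial adhesion gene Epcam was higher at 5.75 in the senescent and 2.98 in the young library. In Marco the kidney cadherin gene Cdh16 was 8.29-fold lower, at 0.244 in the senescent and 2.02 in the young library, and Vim, the filament gene of mesenchymal cells and leukocytes, was 6.99-fold higher, at 6.82 in the senescent and 0.976 in the young library.

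Other genes tied to tubular injury and repair were also examined. The list held 45 symbols, some of them older names of the same gene, and no listed one was a member. In PT 17 of 19 were higher and 2 lower, all at an adjusted p of at most 0.05 per the authors' deposited table. Their median log2 fold change was 2.50 against 1.22 over all genes listed in PT, of which 78.4% were higher. The 2 lower genes were S100a6, at 0.324 in the senescent and 1.78 in the young library, and Tmsb10, at 0.407 in the senescent and 1.08 in the young library. Those with the largest differences were Cxcl1, a neutrophil-attracting chemokine gene, at 0.644 in the senescent and 0.00565 in the young library, and Nfkbiz, an NF-kB regulator, at 0.932 in the senescent and 0.0148 in the young library. In LOH 12 of 13 were higher, 3 of them past the adjusted p, with a median of 2.17 against -0.39. Of all genes listed in LOH, 47.8% were higher. Dcdc2a had a mean of 1.15 in the senescent and 0.122 in the young library in LOH, and Cd24a, a surface marker of regenerating tubule, had 4.28 in the senescent and 1.58 in the young library. Sox9, a repair transcription factor related to SOX4, had 0.732 in the senescent and 0.0140 in the young library there without passing the adjusted p. Tmsb10 and S100a6, lower in PT, were higher in LOH. Tmsb10 had 2.17 in the senescent and 0.473 in the young library, past the adjusted p. S100a6 had 0.602 in the senescent and 0.0340 in the young library without passing it. In endo 9 of 14 were higher and none passed, where 48.2% of all listed genes were higher. In Marco 17 of 20 were higher, 12 of them past it, where 58.3% of all listed genes were higher. In T 9 of 12 and in B 5 of 9 were higher, where 44.8% and 28.2% of all listed genes were. Markers of the immune cells themselves were higher too. These were all 12 macrophage or monocyte markers in Marco (median 2.81), all 8 listed T or NK cell markers in T (1.81) and all 6 listed B cell markers in B (1.24). The share of the immune cluster differences that moves with those markers was not tested. Many of these genes had low means, and with a pseudocount of 1 the list medians were 0.48 in PT, 0.63 in LOH and 1.19 in Marco. Ccl2, a monocyte-attracting chemokine gene, had a mean of 3.04 in the senescent and 0.108 in the young library in Marco.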

How the data were processed

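The tool Cell Ranger 2.1.1 and the genome build mm10 are named, per the submitters' processing notes. The authors deposited the mean signal of each gene per cluster and library, the log2 fold change of senescent over young, a p-value and an adjusted p-value. Cell filters, doublet and free RNA treatment, clustering, scaling and the authors' test are not given in the sources used here. Columns were assigned to libraries by the descriptions in the labels, on which every direction rests, since the deposited contrast name mentions neither group. The deposited log2 fold change equals that of the means plus 0.0001, within 0.01, in 20110 of 20111 entries. Where comparable, the deposited adjusted p-value was a median of 32574 times the p-value.

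Computed here were ratios of means, counts past an absolute log2 fold change of 1, list medians and shares of the PT level. No test was run, since each group had 1 library. Members, lists and alternatives were chosen with earlier results of these data known. Named genes were all member entries, up to 4 genes per list and cluster with the largest log2 fold change at an adjusted p-value up to 0.05 and a mean from 0.1 in either library, and 5 genes most like any member listed in at least 4 clusters. Umod, Kap and the markers were named as references. S100a6 in PT and LOH, Tmsb10 in PT, G0s2 in Marco, Sox9 and the genes named in endo were named after their values were seen. The counting code was tested on simulated data. All 10 members were matched by symbol to the RefSeq annotation of GRCm38.p6, the same build. No sequence is printed. Alternatives were other folds, the adjusted p-value, minimum means, pseudocounts and centring. Python 3.11.15, numpy 2.4.6, pandas 2.3.3 and matplotlib 3.10.9 were used.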

Additional observations from a re-analysis of the deposited data

How the results depend on the processing

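No paired analysis was possible because each group had 1 library, and for the same reason no replicate could be left out. At a 1.5-fold limit all counts were as reported. At a 4-fold limit the higher entries numbered 11 in all and 2 in LOH, and the lower entries numbered 6 in all, 1 in T and 0 in B. With the authors' adjusted p of at most 0.05 required, 2 lower entries were left in all, and there were 0 higher and 0 lower in endo, T and B. A minimum mean of 0.1, taken in whichever library was higher, left 1 lower entry in T. A minimum of 0.5 left 3 lower entries, with 0 in PT, Marco, T and B. Centring on the median of all listed genes left 0 lower entries in B. Restriction to PT, LOH and endo, chosen after seeing the data, left 6 higher and 4 lower entries. No member's direction reversed under any pseudocount or centring, but 8 of 20 log2 ratios fell under 1 in size with a pseudocount of 1 (Lcn2 in Marco, Cp and Clu in PT, Sox4 in LOH, Clu in T, and Krt8 in Marco, T and B). That pseudocount also moved 25 of 36 list medians by 0.5 or more without a change of sign. The median of the 2 listed keratin and junction genes in T was -0.60, and 0.15 with that pseudocount. With Slc12a1 in place of Umod, the ratio of Spp1 was 36.6 in Marco and 113 in T in the senescent library, and 1.77 and 4.48 in the young library. Marker shares of the PT level moved by less than 1.5 times without Kap, also chosen after seeing the data. What these means cannot give is an error between mice.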
